A study of Mus musculus with 6 samples.

Results

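Type 1 conventional dendritic cells were followed through 10 of their marker genes: Cadm1, Clec9a, Xcr1, Itgae, Wdfy4, Naaa, Cd8a, Cd24a, Snx22 and Ly75. The markers are genes known to mark this cell type, they were chosen with earlier results of these data known, and they are 10 of the 23420 genes counted. RNA of freshly isolated mouse splenic dendritic cells was sequenced in bulk, with 3 libraries of the genotype TBK1-DKO and 3 of wild type (WT). All 6 came from C57BL/6 mice with no treatment given in the labels, and the age is stated both as 8 weeks and as 10 weeks. The kinase TBK1 acts downstream of sensors of nucleic acids and of Toll-like receptors. What DKO stands for was not given in the labels, and neither were the alleles, any promoter or Cre line, the way the cells were sorted, or whether each library came from its own animal. The p-values therefore measure the spread between these libraries, which may be technical.

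Type 1 conventional dendritic cells take up dying cells and present their antigens to CD8+ T cells, a process called cross-presentation. Their development depends on the transcription factors IRF8 and BATF3. In the mouse spleen they are recognised by surface CD8 alpha, XCR1 and CLEC9A, whereas type 2 cells carry SIRP alpha and plasmacytoid cells carry SIGLEC-H.

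Reads in genes ranged from 45018389 to 47349648 in the TBK1-DKO libraries and from 31077585 to 36145508 in the WT libraries, so the TBK1-DKO libraries were deeper without overlap. Levels are given as counts per 1000000 reads (CPM), and fold changes as log2 of TBK1-DKO over WT with their standard error (SE). A gene was called changed at an adjusted p under 0.05 in the quasi-likelihood test of edgeR, adjusted by Benjamini-Hochberg over the 14388 genes tested. Tbk1 itself stood at 83.9, 79.2 and 83.8 CPM in TBK1-DKO libraries 1, 2 and 3, against 90.7, 80.8 and 83.7 CPM in WT libraries 1, 2 and 3. The groups overlapped, and the log2 fold change of -0.05 (SE 0.06) was not called (edgeR adjusted p = 0.63). Counts over the whole gene do not show whether a part of it was deleted, so the labels are not checked by them, and the groups are named here as labelled. TBK1-DKO 2 stood apart from TBK1-DKO 1 and 3 along transcript length: across 10663 genes, its deviation from the group mean had a Spearman rho of -0.77 with transcript length, against 0.65 and 0.68 in the others. In WT the value was 0.36 for WT 1, against -0.35 and -0.23 for WT 2 and 3. Deviations within a group balance each other by construction, so a strong trend in 1 library pushes the others towards the opposite sign. This is a description across genes that share their libraries.

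All 10 markers were detected in every library and passed the filter on low counts. Cadm1, Clec9a, Xcr1, Itgae, Naaa and Cd8a were lower in TBK1-DKO, Cd24a, Snx22 and Ly75 were higher, and Wdfy4 was not called. Thus 6 of 10 markers fell, against 9.90% of all genes tested, and 3 of 10 rose, against 13.7% of all genes. Since the choice was made with earlier results known, these counts are a description. The groups did not overlap for 6 markers higher in WT (19.5% of all genes) and for 3 higher in TBK1-DKO (21.5% of all genes). The median log2 fold change of the 10 markers was -0.38, and that of all genes tested was 0.0015. In bulk RNA, fewer cells of a type and less RNA of a gene per cell cannot be told apart.

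**Figure D1:**
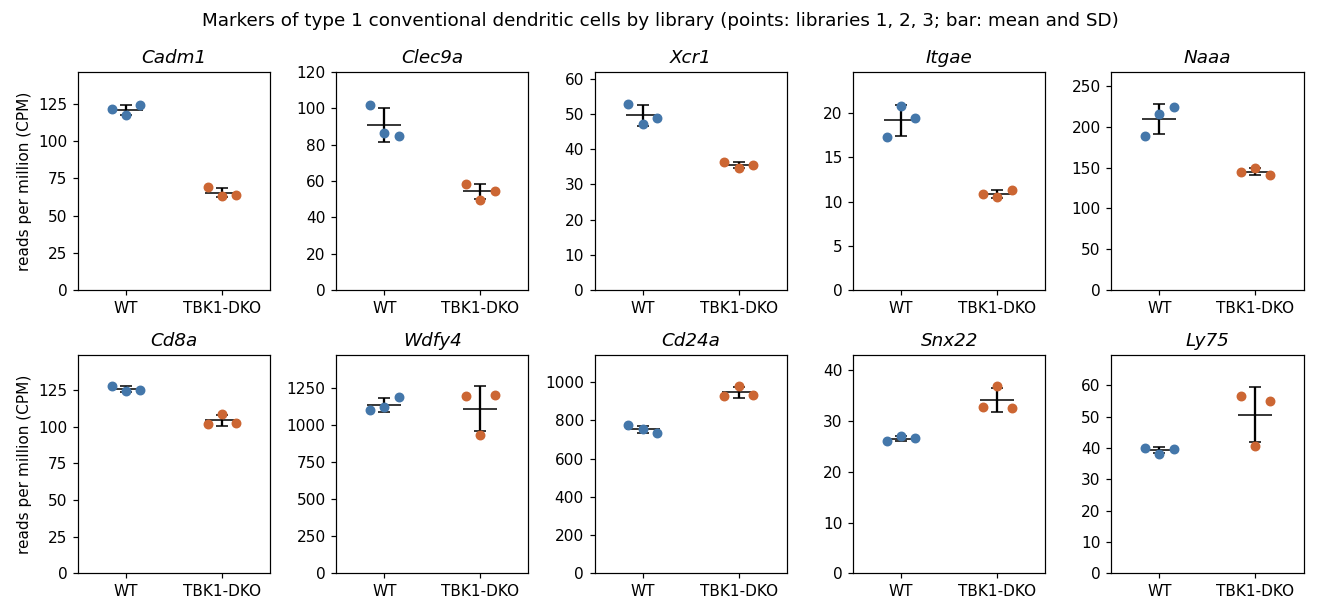
Level of each of the 10 markers in CPM (axes in CPM, 1 panel per gene), with 1 point per library and a bar at the mean ± SD of the 3 libraries of each group. Cadm1, Clec9a, Xcr1, Itgae, Naaa and Cd8a are lower in all 3 TBK1-DKO libraries, Cd24a, Snx22 and Ly75 are higher, and the groups overlap for Wdfy4.

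The surface receptors by which the cells are recognised are described first, with the promoters of those the results turn on. The 250 bases before the start site are given 5′ to 3′ from RefSeq (GRCm38.p6), in lower case with CG dinucleotides in capitals. Clec9a and Xcr1 were lower in TBK1-DKO and Ly75 was higher, so they show promoters from both directions. The windows lie at chr6:129408612-129408861 on the plus strand for Clec9a, at chr9:123862030-123862279 on the minus strand for Xcr1 and at chr2:60383274-60383523 on the minus strand for Ly75. Gene positions given below are from GENCODE M21, whose starts can differ. By these positions the Ly75 window lies partly inside its gene, and the Wdfy4 window wholly inside its gene.
Clec9a: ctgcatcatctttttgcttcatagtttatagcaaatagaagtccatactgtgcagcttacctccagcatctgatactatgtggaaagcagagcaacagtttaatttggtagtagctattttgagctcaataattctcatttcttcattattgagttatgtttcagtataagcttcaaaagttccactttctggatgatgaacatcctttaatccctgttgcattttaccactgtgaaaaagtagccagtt
Xcr1: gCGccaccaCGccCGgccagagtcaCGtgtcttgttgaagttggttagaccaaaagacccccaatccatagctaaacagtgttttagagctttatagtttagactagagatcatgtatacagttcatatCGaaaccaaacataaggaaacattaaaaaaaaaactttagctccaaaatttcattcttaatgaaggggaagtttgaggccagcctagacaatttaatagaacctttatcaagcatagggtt
Ly75: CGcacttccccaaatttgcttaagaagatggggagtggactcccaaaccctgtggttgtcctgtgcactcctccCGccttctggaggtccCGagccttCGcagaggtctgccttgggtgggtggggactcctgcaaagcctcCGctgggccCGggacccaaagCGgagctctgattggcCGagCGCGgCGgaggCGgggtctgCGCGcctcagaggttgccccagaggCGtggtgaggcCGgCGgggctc
The Clec9a window held no CG dinucleotide and a GC content of 35.6%. The Xcr1 window held 5 CG dinucleotides at 38.8% GC, and the Ly75 window held 17 at 66.8% GC. Across 32851 RefSeq windows of this length the median was 6 CG dinucleotides, with quartiles of 2 and 16, and the median GC content was 52.4%. Of the other 7 markers, windows were found for 4: Cd8a held 0 CG dinucleotides, Wdfy4 held 5, Naaa held 10, and both start sites of Snx22 held 10. Letters of an AP-1 motif (TGANTCA, in 6.749% of all windows), an IRF motif (GAAANNGAA, in 7.129%) and an ETS motif (GAGGAAGT, in 2.441%) were searched on both strands, and none occurred in the 8 windows of these 7 markers.

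Clec9a encodes a C-type lectin receptor that binds the actin filaments exposed by dead cells and aids cross-presentation (chromosome 6, 129408862 to 129424763, plus strand, GRCm38). Its level was 58.3, 49.8 and 54.8 CPM in TBK1-DKO libraries 1, 2 and 3, against 102, 86.6 and 84.8 CPM in WT libraries 1, 2 and 3. Every TBK1-DKO library was below every WT library, and WT 1 was the highest. The means were 54.3 ± 4.28 and 91.1 ± 9.38 CPM (SD, n = 3 libraries each), for a change of -0.74 on the log2 scale (SE 0.08, with a 95% interval from -0.93 to -0.56, edgeR adjusted p = 1.5e-04). The gene shares 184 exon bases with Clec1b on the same strand, a lectin receptor gene that also fell, by 0.48 on the log2 scale. Reads in the shared bases cannot be assigned to either gene by position.

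Xcr1 encodes the receptor for the chemokine XCL1, which natural killer cells and CD8+ T cells release (chromosome 9, 123852315 to 123862029, minus strand). It measured 36.4, 34.6 and 35.4 CPM in TBK1-DKO libraries 1, 2 and 3, against 52.9, 47.1 and 48.7 CPM in WT libraries 1, 2 and 3. The TBK1-DKO libraries lay close together and all below WT. Xcr1 thus had a log2 fold change of -0.48 (SE 0.06, 95% interval from -0.62 to -0.34, edgeR adjusted p = 4.0e-04). The fall was 1.40-fold on mean CPM, against 1.68-fold for Clec9a. The log2 ratio of Xcr1 to Clec9a was -0.61 ± 0.08 in TBK1-DKO and -0.87 ± 0.07 in WT (SD, n = 3), without overlap. An exact permutation test gave a two-sided p of 0.1, the smallest that 3 against 3 libraries allow, and 0.138 after Benjamini-Hochberg adjustment over 11 gene pairs, which were chosen after the values were seen.

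Cadm1 encodes an adhesion molecule of the immunoglobulin superfamily that binds CRTAM on activated T cells (chromosome 9, 47530173 to 47857637, plus strand). Its level was 68.9, 63.0 and 64.0 CPM in TBK1-DKO libraries 1, 2 and 3, against 121, 117 and 124 CPM in WT libraries 1, 2 and 3. This was the largest fall of the 10 markers in the edgeR fit, with means of 65.3 ± 3.18 and 121 ± 3.32 CPM (SD, n = 3). The log2 fold change was -0.89 (SE 0.06, 95% interval from -1.02 to -0.76, edgeR adjusted p = 5.7e-06), and it ranged from -0.99 to -0.87 over the 19 alternative analyses.

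Itgae encodes CD103, the integrin alpha chain that pairs with beta 7 and binds E-cadherin (chromosome 11, 73090583 to 73147446, plus strand). It was the marker with the fewest reads per kilobase, at 10.8, 10.5 and 11.3 CPM in TBK1-DKO libraries 1, 2 and 3, against 17.3, 20.8 and 19.4 CPM in WT libraries 1, 2 and 3. The highest TBK1-DKO library was below the lowest WT library. Itgae had a log2 fold change of -0.82 (SE 0.09, 95% interval from -1.01 to -0.63, edgeR adjusted p = 9.4e-05). CD103 also occurs on T cells, and the T cell gene Cd3e fell by 0.41 on the log2 scale. The log2 ratio of Itgae to Cd3e was -1.17 ± 0.06 in TBK1-DKO and -0.77 ± 0.06 in WT (SD, n = 3), without overlap. In these libraries Itgae was lower relative to Cd3e too (exact two-sided permutation p = 0.1, adjusted over the 11 pairs 0.138). The part of T cells in the Itgae fall was not tested.

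Cd8a encodes CD8 alpha, which forms a homodimer on these dendritic cells and pairs with CD8 beta on T cells (chromosome 6, 71373427 to 71379173, plus strand). Its level was 102, 109 and 103 CPM in TBK1-DKO libraries 1, 2 and 3, against 128, 124 and 125 CPM in WT libraries 1, 2 and 3. The groups did not overlap, and the fall was the smallest of the 6, with a log2 fold change of -0.27 (SE 0.05, 95% interval from -0.39 to -0.15, edgeR adjusted p = 0.0053). The T cell partner Cd8b1 stood at 32.0 ± 2.61 CPM in TBK1-DKO and 42.3 ± 2.32 CPM in WT (SD, n = 3), a log2 fold change of -0.40 (edgeR adjusted p = 0.0034). The log2 ratio of Cd8a to Cd8b1 was 1.71 ± 0.07 in TBK1-DKO and 1.57 ± 0.06 in WT (SD, n = 3). Cd8a was higher relative to Cd8b1 without overlap (exact two-sided permutation p = 0.1, adjusted over the same gene pairs 0.138). For Cd8a to Cd3e the ratio was 2.09 ± 0.07 in TBK1-DKO and 1.95 ± 0.10 in WT. These groups overlapped (exact two-sided permutation p = 0.2, adjusted 0.22). How much of the Cd8a signal came from T cells was not tested.

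Naaa encodes N-acylethanolamine acid amidase, a lysosomal enzyme that breaks down fatty acid ethanolamides (chromosome 5, 92257659 to 92278170, minus strand). It measured 145, 150 and 140 CPM in TBK1-DKO libraries 1, 2 and 3, against 189, 215 and 224 CPM in WT libraries 1, 2 and 3. All TBK1-DKO libraries were below WT, where WT 1 was the lowest. Naaa changed by -0.53 on the log2 scale (SE 0.07, 95% interval from -0.69 to -0.37, edgeR adjusted p = 4.3e-04).

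Wdfy4 encodes a BEACH-domain protein needed for cross-presentation of cell-associated antigens (chromosome 14, 32959547 to 33185508, minus strand). Its level was 1196, 936 and 1203 CPM in TBK1-DKO libraries 1, 2 and 3, against 1099, 1123 and 1189 CPM in WT libraries 1, 2 and 3. TBK1-DKO 2 was the lowest of all 6 libraries and the other two TBK1-DKO libraries were the highest, so the groups overlapped. The log2 fold change was -0.03 (SE 0.10, 95% interval from -0.25 to 0.18, edgeR adjusted p = 0.85), and without TBK1-DKO 2 it was 0.05 and still not called. With 10158 bases, Wdfy4 had the longest transcript of the markers, and 2.12% of tested genes had a longer one. Whether the length trend of TBK1-DKO 2 sets its low value was not tested.

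Cd24a encodes a small glycosylated surface protein, heat-stable antigen, that is also abundant on immature B cells, erythroid precursors and neutrophils (chromosome 10, 43578284 to 43584265, plus strand). It measured 926, 979 and 930 CPM in TBK1-DKO libraries 1, 2 and 3, against 773, 754 and 736 CPM in WT libraries 1, 2 and 3. Every TBK1-DKO library was above every WT library. The log2 fold change was 0.33 (SE 0.06, 95% interval from 0.19 to 0.46, edgeR adjusted p = 0.0030). Beside it, all 13 neutrophil genes and all 12 tested erythroid genes rose (against 13.7% of all genes tested), including the neutrophil granule gene Mpo (log2 fold change 1.95). Of 14 B cell genes, 8 fell (against 9.90% of all genes tested) and 0 rose. The part of these cells in the Cd24a rise was not tested.

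Snx22 encodes a sorting nexin, a family that binds phosphoinositides and acts in endosomal trafficking (chromosome 9, 66065176 to 66069719, minus strand). Its level was 32.8, 36.8 and 32.6 CPM in TBK1-DKO libraries 1, 2 and 3, against 26.0, 27.0 and 26.6 CPM in WT libraries 1, 2 and 3. The groups did not overlap, and the log2 fold change was 0.36 (SE 0.07, 95% interval from 0.21 to 0.52, edgeR adjusted p = 0.0037). Snx22 shares 825 exon bases with Ppib on the opposite strand, and whether the counting used strand is not known. Ppib, a prolyl isomerase, stood at 60.9 ± 1.59 CPM in TBK1-DKO and 55.6 ± 1.17 CPM in WT (SD, n = 3) and was not called (log2 fold change 0.13, edgeR adjusted p = 0.11).

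Ly75 encodes DEC-205, an endocytic receptor that carries antigen to late endosomes (chromosome 2, 60292103 to 60383303, minus strand). It measured 56.5, 40.5 and 54.8 CPM in TBK1-DKO libraries 1, 2 and 3, against 40.0, 38.1 and 39.6 CPM in WT libraries 1, 2 and 3. TBK1-DKO 2 lay just above the highest WT library and the other two well above. The log2 fold change was 0.37 (SE 0.11, 95% interval from 0.12 to 0.62, edgeR adjusted p = 0.037). The call was lost in edgeR without TBK1-DKO 1 (0.28, adjusted p = 0.13), without TBK1-DKO 3 (0.31, adjusted p = 0.12) and without WT 1, 2 or 3 (adjusted p = 0.11, 0.13 and 0.10). It was also lost with limma-voom (adjusted p = 0.057). At 6901 bases its transcript was the second longest of the markers, and it shares 249 exon bases with the antisense gene Gm13571. The part of other cells in the Ly75 rise was not tested.

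**Figure D2:**
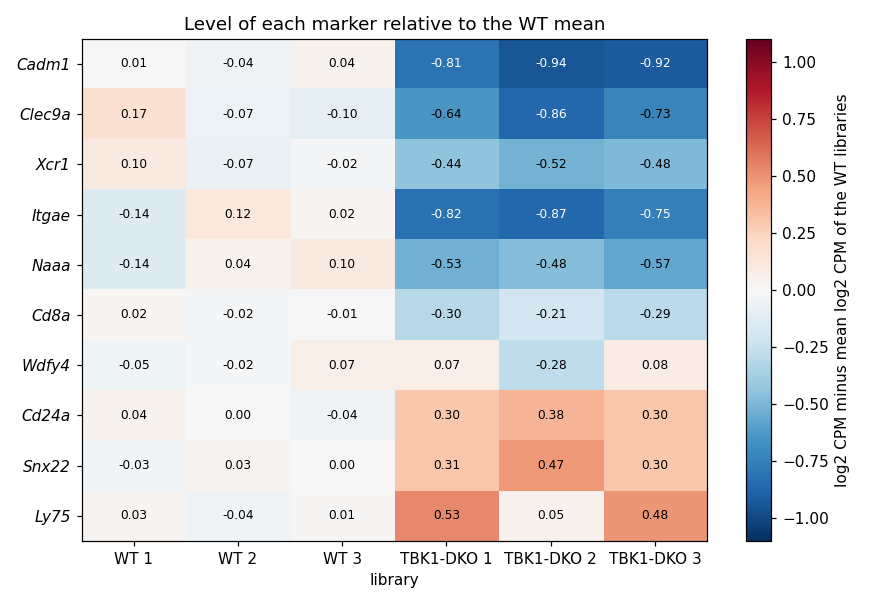
Log2 difference of each marker in each library from the mean of the 3 WT libraries (colour and printed value, markers in rows, libraries in columns). TBK1-DKO 2 departs from the other TBK1-DKO libraries for Wdfy4 (-0.28 against 0.07 and 0.08) and Ly75 (0.05 against 0.53 and 0.48).

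**Figure D3:**
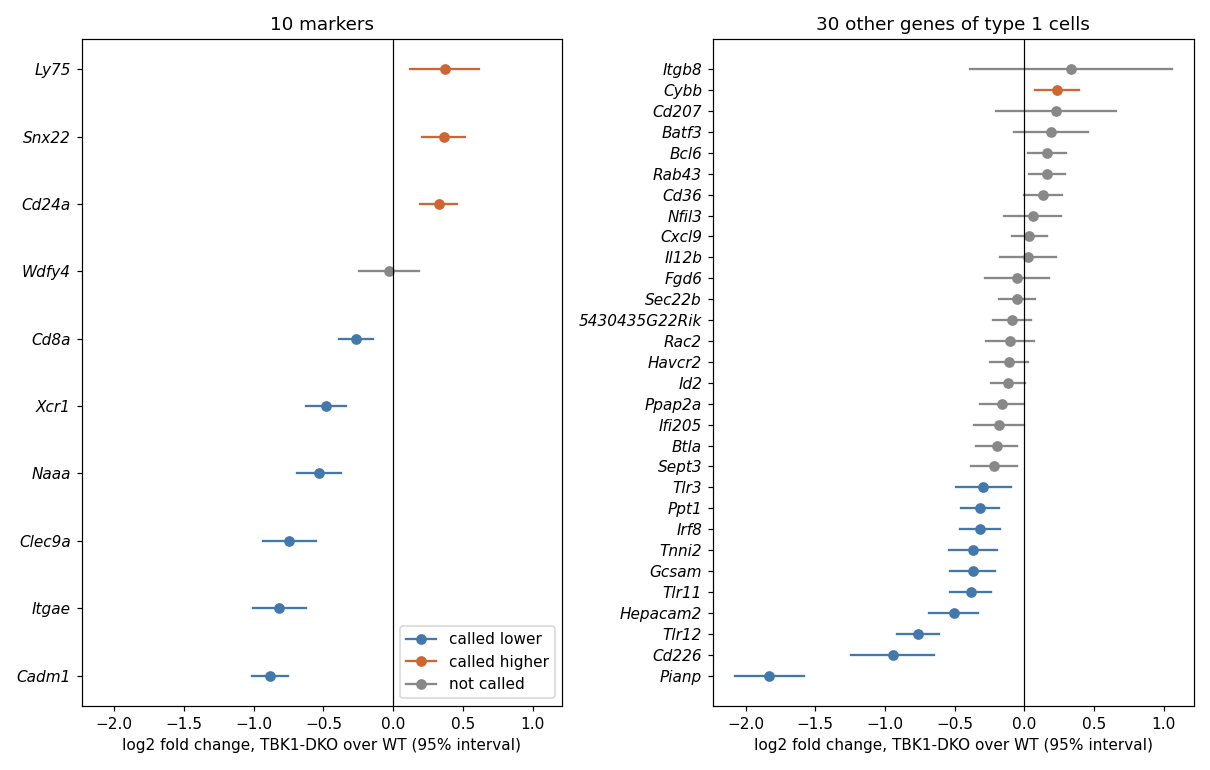
Log2 fold change of TBK1-DKO over WT with its 95% interval (points and bars) for the 10 markers and for 30 other genes of type 1 cells, coloured by call. The intervals of 6 markers lie below 0, those of Cd24a, Snx22 and Ly75 lie above 0, and that of Wdfy4 spans 0.

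Levels of different genes were compared per kilobase of exon. In WT, Cd24a was the most abundant marker at 292 ± 7.21 reads per kilobase per 1000000 reads (RPKM; SD, n = 3), followed by Wdfy4 at 108 ± 4.44 and Naaa at 56.3 ± 4.93 RPKM. Cd8a followed at 34.6 and Clec9a at 27.7 RPKM. Cadm1 at 11.6 ± 0.32 and Xcr1 at 11.1 ± 0.67 RPKM did not differ beyond their spread in WT, and their libraries overlapped. Snx22 at 9.17, Ly75 at 5.68 and Itgae at 4.18 RPKM were the lowest. In TBK1-DKO, Cadm1 was 9th of the 10 at 6.26 RPKM and Snx22 was 6th at 11.8 RPKM. With the longest transcript as length the WT order was the same, although Cadm1 then stood at 26.9 and Naaa at 86.8 RPKM. The TBK1-DKO order was not: Cadm1, at 14.6 RPKM, was then above Snx22, at 13.4 RPKM.

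The markers were also set against other dendritic cell genes. The mean log2 CPM of 20 genes shared by dendritic cell types was 0.11 higher in TBK1-DKO, and that of 20 type 2 genes was 0.08 lower. Relative to the shared genes, Cadm1 differed (TBK1-DKO minus WT) by -0.997, Itgae by -0.92, Clec9a by -0.85, Naaa by -0.64, Xcr1 by -0.59 and Cd8a by -0.38 on the log2 scale. Relative to the type 2 genes, the same markers differed by -0.81, -0.73, -0.66, -0.45, -0.40 and -0.19. The ratio to the shared genes was higher in TBK1-DKO than in WT by 0.22 for Cd24a, 0.25 for Snx22 and 0.24 for Ly75, and the groups overlapped for Ly75 alone among these 3. These ratios are descriptions and were not tested. How much RNA of the reference genes came from cells other than dendritic cells was not tested either.

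The list of 30 other genes of type 1 cells was drawn up with earlier results of these data known. Of its 30 tested genes, 10 fell (against 9.90% of all genes tested), 1 rose (against 13.7%) and 19 were not called, with a median log2 fold change of -0.11. IRF8, the factor on which the lineage depends, is encoded by Irf8, which stood at 583, 605 and 584 CPM in TBK1-DKO libraries 1, 2 and 3, against 689, 751 and 773 CPM in WT libraries 1, 2 and 3. The groups did not overlap, and Irf8 fell by 0.32 on the log2 scale (SE 0.06, edgeR adjusted p = 0.0051). How much RNA of Irf8 and of the other genes in this list came from cells other than type 1 cells was not tested. Batf3, its partner in these cells, was not called (log2 fold change 0.19, SE 0.12, edgeR adjusted p = 0.29), and its groups overlapped. Its value was 0.063 without TBK1-DKO 2 and 0.070 without WT 1. Among the other regulators, Id2 (log2 fold change -0.12) and Nfil3 (0.06) were not called, although Id2 was called lower in edgeR without TBK1-DKO 2 (adjusted p = 0.011).

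The list held 3 Toll-like receptor genes, Tlr3, Tlr11 and Tlr12. Tlr12, a partner of Tlr11 in sensing profilin, fell from 31.7 ± 1.88 to 18.7 ± 0.10 CPM (SD, n = 3). Its log2 fold change was -0.77 (SE 0.07, edgeR adjusted p = 3.3e-05). Tlr11 fell by 0.38 on the log2 scale (SE 0.07, edgeR adjusted p = 0.0020). Tlr3, the receptor for double-stranded RNA, differed by less, with an edgeR adjusted p of 0.038. The Tlr3 call was lost in edgeR without TBK1-DKO 3 (adjusted p = 0.062), without WT 1 (0.11) and without WT 2 (0.068). The largest change of the list was in Pianp, at 3.19 ± 0.29 CPM in TBK1-DKO and 11.3 ± 1.06 CPM in WT (SD, n = 3), which is -1.83 on the log2 scale (SE 0.11, edgeR adjusted p = 3.7e-06). Cd226, an adhesion receptor gene, Hepacam2 (-0.51), Gcsam (-0.37), Tnni2 (-0.37) and the lysosomal thioesterase gene Ppt1 (-0.32) also fell. Cybb, the NADPH oxidase subunit, rose by 0.23 (edgeR adjusted p = 0.035), a call lost without TBK1-DKO 1 (adjusted p = 0.14), TBK1-DKO 3 (0.13), WT 2 (0.15) or WT 3 (0.16).

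Genes of other dendritic cells moved as well. Of 20 genes shared by dendritic cell types, 5 rose (against 13.7% of all genes tested), 3 fell (against 9.90%) and 12 were not called. Without TBK1-DKO 1, TBK1-DKO 3 or WT 2 the count that fell was 1, and with length and GC offsets 8 rose and 7 fell. Anpep, an aminopeptidase, and Relb, an NF-kappa B subunit, each rose by 0.58 on the log2 scale, and Flt3, the growth factor receptor of the lineage, was at 0.01 and not called. Itgax, which encodes CD11c, was lower (log2 fold change -0.20, edgeR adjusted p = 0.030), a call lost in edgeR without TBK1-DKO 1 (adjusted p = 0.070), TBK1-DKO 3 (0.095), WT 1 (0.067) or WT 2 (0.082). Zbtb46 was higher (0.35, edgeR adjusted p = 0.011), a call lost without TBK1-DKO 1 or WT 3 (adjusted p = 0.051 and 0.052). Of 20 type 2 genes, 7 fell and 3 rose (5 without TBK1-DKO 2), the latter a share near that of all genes. Among those with the smallest p, Clec10a (-0.79), Cd209a (-0.61) and Csf1r (-0.53) fell and Esam (0.75) rose on the log2 scale. Sirpa (-0.11) and Irf4 (0.06) were not called, although Sirpa was called lower without TBK1-DKO 2 (edgeR adjusted p = 0.039). Of 16 plasmacytoid genes, 13 fell, against 9.90% of all genes, and 1 rose (0 without WT 2 or WT 3). Siglech, a plasmacytoid surface lectin gene, fell by 0.71 on the log2 scale. The log2 ratio of Clec9a to Siglech was -1.32 ± 0.11 in TBK1-DKO and -1.28 ± 0.05 in WT (SD, n = 3, exact two-sided permutation p = 0.8). The log2 ratio of Clec9a to Sirpa was -3.92 ± 0.12 and -3.29 ± 0.17, without overlap (exact two-sided permutation p = 0.1, adjusted over the 11 pairs 0.138).

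RNA of cells other than dendritic cells was present in all libraries, and it moved with the groups. For the counts below, the shares of all genes tested were 9.90% that fell and 13.7% that rose. The summed level of 14 B cell genes was 4317 to 4424 CPM in TBK1-DKO and 5116 to 5240 CPM in WT, and 8 of the 14 fell. Of 16 T cell genes 10 fell (612 to 633 against 717 to 737 CPM summed), of 11 tested natural killer cell genes 10 fell (387 to 404 against 525 to 591 CPM), and of 14 macrophage genes 12 fell (5192 to 5661 against 7478 to 8078 CPM). The 13 neutrophil genes rose, with sums of 6180 to 7132 CPM in TBK1-DKO and 2558 to 2831 CPM in WT. The 12 tested erythroid genes rose (3593 to 3814 against 2111 to 2360 CPM), as did 7 of 9 plasma cell genes and 8 of 12 precursor genes. In the plasma cell list 1 gene fell, Slamf7, and in the precursor list 1 fell, Siglech. Slamf7 was not called without TBK1-DKO 1, TBK1-DKO 3, WT 1 or WT 2, or with the robust option off. The precursor count that rose was 5 without TBK1-DKO 1, TBK1-DKO 3, WT 2 or WT 3, and with scaling to the shared dendritic cell genes. With that scaling, 2 precursor genes fell. The part of these other cells in the marker results was not tested. The summed level of the 10 markers was 2409 to 2633 CPM in TBK1-DKO and 2548 to 2618 CPM in WT, and most of it came from Cd24a and Wdfy4, so it does not follow the 6 markers that fell.

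**Figure D4:**
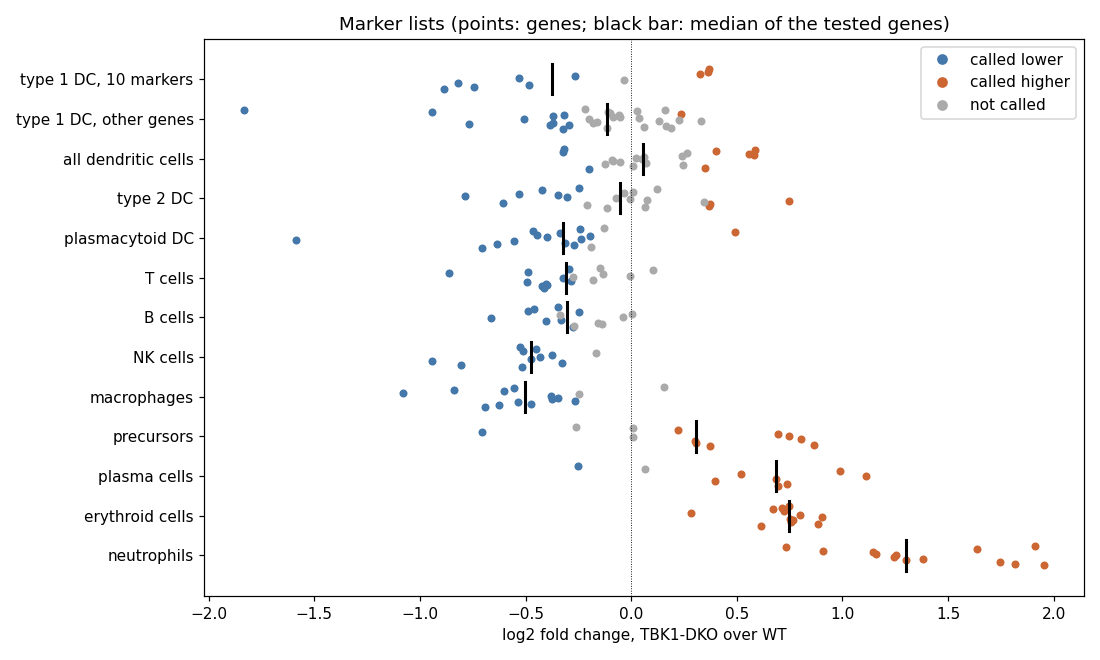
Log2 fold change of TBK1-DKO over WT for the tested genes of each list (1 point per gene coloured by call, with a black bar at the median of the list). The 10 markers have a median of -0.38, between the lists of neutrophils (1.30) and macrophages (-0.50).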

How the data were processed

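Bulk RNA sequencing of splenic dendritic cells was analysed in 3 TBK1-DKO and 3 WT libraries, grouped by the genotype label and numbered by title. The deposited values are whole-number counts per gene symbol, neither scaled nor pooled by the authors. The submitters' processing notes name HTSeq, TopHat, TopHat2, DESeq2 and the mm10 build. Their versions, the annotation and the strand setting were not given in the labels or file headers. Summary entries naming no gene (8.20% to 10.7% of records) were left out.

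Counts were tested with edgeR 4.0.16 in R 4.3.3: filterByExpr with a minimum count of 10, TMM factors (0.996 to 1.012), robust quasi-likelihood F test, groups only. SEs were derived from the F statistic. Of the 23420 symbols, 21777 matched GENCODE M21 (on GRCm38, which is mm10) directly, 1259 by synonym and 384 not at all. RPKM values were computed from the deposited counts and the union of exons. The test was run on simulated data first, where it missed most changes of the smallest size tried, and the unchanged share of its calls was above the 0.05 threshold.

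The members and gene lists were chosen with earlier results of these data known. Some genes are in more than 1 list. Genes named were the 10 markers, up to 4 genes per list with the smallest p, 17 preset genes and the 8 genes most like the mean of Xcr1, Clec9a and Cadm1. Only some of these are printed, and values of some single genes are not reported here. Gcsam, Tnni2, Ppt1, Cybb and Tlr11 were added as the other called genes of their list, and Ppib and Clec1b as genes that overlap a marker. Alternatives were DESeq2 1.42.0, limma-voom (limma 3.58.1), RLE and upper-quartile factors, scaling to the shared dendritic cell genes, no filter and a stricter one, the replicate number as a block, no robust option, haemoglobin and immunoglobulin genes removed, length and GC offsets, thinning to 31077585 reads, and libraries left out. Figures were drawn with matplotlib 3.10.9.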

Additional observations from a re-analysis of the deposited data

How the results depend on the processing

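Of the 10 markers, 6 fell in the edgeR fit and in all 19 alternatives, and 3 rose in that fit and 2 or 3 in the alternatives. Cadm1, Clec9a, Xcr1, Itgae, Naaa, Cd8a, Cd24a and Snx22 kept their direction and call in all 19. Ly75 kept its direction in all 19 and its call in 12 (edgeR adjusted p = 0.14 with scaling to the shared dendritic cell genes). Among the 30 other type 1 genes, 16 fell with that scaling and 16 with length and GC offsets, against 10. The count that rose, 1, became 0 with that scaling, 0 with thinning, 4 with the offsets and 4 in TBK1-DKO 1 and 3 against WT 2 and 3, and ranged from 0 to 3 with 1 library left out. The cause was not tested. Cybb and Zbtb46 lost their calls with that scaling (edgeR adjusted p = 0.27 and 0.075), whereas Id2 and Sirpa were called lower with it (0.018 and 0.016).

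Uncalled log2 fold changes near 0 changed sign. In TBK1-DKO 1 and 3 against WT 2 and 3, the value was 0.041 for Wdfy4, -0.045 for Batf3, 0.016 for Tbk1 and -0.00485 for Flt3. With scaling to the shared genes it was -0.097 for Flt3, -0.051 for Nfil3 and -0.043 for Irf4. Flt3 was -0.011 with upper-quartile factors, -0.00287 with no filter and -0.025 with the offsets. Nfil3 was -0.00751 with the offsets and -0.00596 with thinning. With 1 library left out, the ranges were -0.092 to 0.055 for Wdfy4, -0.0996 to 0.000161 for Tbk1, -0.0068 to 0.022 for Flt3 and -0.017 to 0.14 for Nfil3.

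Over all genes, 1978 rose and 1424 fell in the edgeR fit. The counts were 1305 and 2619 with scaling to the shared genes (median of all genes -0.11), 2506 and 2876 with the offsets, and 3500 and 3397 in TBK1-DKO 1 and 3 against WT 2 and 3. This subset keeps TBK1-DKO libraries with a positive length trend and WT libraries with a negative one, each relative to its own group mean. Such trends cannot show how transcript length relates to the difference between the groups. The part of transcript length in the counts of this subset was not tested. Deviations from the group mean in libraries of the same replicate number had correlations of 0.42, 0.37 and -0.20. These deviations also followed transcript length, so the correlations cannot show whether the samples were paired. With the replicate block, 2313 rose and 1773 fell, with 6 markers down and 3 up. With all libraries thinned to 31077585 reads, 6 markers were down and 3 up.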

Other observations

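Genes whose level over the 6 libraries was most like the mean of Xcr1, Clec9a and Cadm1 were ranked by Pearson's r among 10702 genes, of which 47 had an r over 0.99. The libraries fall into 2 groups, so a gene that differs between groups with little spread gets a high r, and no p is given. The 8 highest were Cmtm6, Slc25a53, Kcnj16, Colec12, Mpeg1, Slc40a1, Igf1 and Rab6b, with r from 0.996 to 0.999. Cmtm6, which had the highest r, was itself not called changed. Slc40a1, the iron exporter ferroportin, was also in the list of macrophage genes. It stood at 762 ± 27.7 CPM in TBK1-DKO and 1155 ± 22.7 CPM in WT (SD, n = 3). The part of macrophages in its likeness to the markers was not tested. Igf1, a growth factor gene, stood at 90.2 ± 5.39 and 150 ± 3.33 CPM. Mpeg1, which encodes the pore-forming protein perforin-2, stood at 1221 ± 44.5 and 1603 ± 40.8 CPM. Of the other 7 markers, Cd8a had an r of 0.95, Itgae of 0.94, Naaa of 0.91 and Wdfy4 of 0.23, whereas Ly75 had -0.66 and both Cd24a and Snx22 had -0.97.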
